A study of Rattus norvegicus with 6 samples.

Results

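The proteasome genes of the rat spinal cord were taken as every gene whose symbol begins with Psm, a letter from a to g and a number, and whose estimated counts summed to at least 60 over the 6 libraries. Of the 22050 genes in the expression table, 50 had such a symbol and 48 reached this minimum. The member nearest to the minimum was *Psmd10*, with 90 counts in all, and the gene just outside it was *Psmb11*, with 12. *Psma8*, the testis alpha subunit gene, had 6 counts. *Psmb11*, the thymus-specific beta subunit gene, and *Psma8* were not analysed further. By their descriptions, 46 of the 48 genes encode subunits, activators, an inhibitor or assembly chaperones of the proteasome. The other two carry a related symbol only. *Psmc3ip* encodes a partner of a 19S ATPase that works in meiotic recombination, and *Psme3ip1* encodes a partner of the activator PA28 gamma. The gene for alpha subunit 3 was listed as *Psma3l*.

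RNA of spinal cord was sequenced in 3 libraries of sham rats and 3 libraries of SNI-NP rats. SNI-NP rats had neuropathic pain induced by spared nerve injury, in which the sural branch of the sciatic nerve is left intact while the others are injured, and sham rats had the sham operation. All were male Sprague-Dawley rats aged 8 to 10 weeks, with no genetic change or drug named for either group. The side, spinal segment and day of sampling are not given for these libraries in the sources used here, and no label says whether a library came from 1 animal or several. P-values therefore measure the spread between libraries.

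The proteasome is the protease that degrades proteins tagged with ubiquitin. Its 20S core is a barrel of alpha and beta rings with the protease sites inside, and the 19S particle on its ends binds ubiquitin chains, unfolds substrates and feeds them in. Interferons induce 3 replacement catalytic subunits and the activator PA28, which favour peptides for class I antigen presentation, and the transcription factor NRF1, encoded by *Nfe2l1*, raises subunit genes when proteasome activity falls.

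The promoters of the 5 interferon-inducible genes are shown because sham replicate 1 was the lowest library for all 5. Their highest library was SNI-NP replicate 2 for 2 genes and SNI-NP replicate 3 for 3. The promoter of the constitutive catalytic subunit *Psmb5* is shown for comparison. The sequences are from RefSeq (GRCr8) and run 5′ to 3′ from 150 bases before the annotated start to 10 bases after it. Capitals mark GAAANNGAAA, the core of an interferon-stimulated response element, in the inducible genes, and TGACNNNGC, the core of an antioxidant response element, in *Psmb5*. The lines of *Psmb9* and *Psme1* have no capitals because this window did not hold the letters searched. The windows are chr20:4657022-4657181 (minus strand) for *Psmb8*, chr19:50743283-50743442 (minus) for *Psmb10*, chr15:33052742-33052901 (minus) for *Psme2*, chr20:4668850-4669009 (plus) for *Psmb9*, chr15:33038821-33038980 (plus) for *Psme1* and chr15:32047370-32047529 (minus) for *Psmb5*.
Psmb8: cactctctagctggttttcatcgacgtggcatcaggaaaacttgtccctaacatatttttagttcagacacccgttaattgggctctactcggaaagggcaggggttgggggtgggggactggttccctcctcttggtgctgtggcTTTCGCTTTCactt
Psmb10: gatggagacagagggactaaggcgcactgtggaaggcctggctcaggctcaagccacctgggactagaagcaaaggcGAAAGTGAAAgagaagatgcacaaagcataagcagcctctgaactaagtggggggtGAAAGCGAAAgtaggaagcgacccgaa
Psme2: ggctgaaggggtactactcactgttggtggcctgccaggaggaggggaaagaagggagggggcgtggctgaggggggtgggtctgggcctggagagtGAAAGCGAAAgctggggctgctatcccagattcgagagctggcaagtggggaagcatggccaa
Psmb9: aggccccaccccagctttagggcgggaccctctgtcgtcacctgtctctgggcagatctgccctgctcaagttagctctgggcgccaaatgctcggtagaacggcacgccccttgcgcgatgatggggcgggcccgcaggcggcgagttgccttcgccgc
Psme1: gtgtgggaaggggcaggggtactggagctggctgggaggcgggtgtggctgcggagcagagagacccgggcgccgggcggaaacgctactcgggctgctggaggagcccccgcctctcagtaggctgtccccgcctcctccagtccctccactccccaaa
Psmb5: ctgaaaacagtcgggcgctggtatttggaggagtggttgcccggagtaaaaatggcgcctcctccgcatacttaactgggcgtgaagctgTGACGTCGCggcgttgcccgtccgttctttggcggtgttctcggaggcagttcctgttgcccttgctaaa

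Promoters of 300 bases, 250 before and 50 after the start, were matched for 44 of the 48 genes, those of *Psma7*, *Psmd6*, *Psmd12* and *Psmd14* being the exceptions. Each of 6 motifs was searched on both strands, and the share of members holding it was set beside the share among the promoters of 10866 tested genes. GAAANNGAAA was found in 7 of 44 promoters (15.9%) against 2.83% of the background. These were *Psmb8*, beginning 4 bases before the start and read on the opposite strand, *Psmb10*, 73 and 17 bases before it, *Psme2*, 53 bases before it, and *Psma4*, *Psmb3*, *Psmd7* and *Psmg4*. The ETS site CCGGAAG was found in 16 promoters (36.4%, background 16.1%) and the CCAAT box, spelled CCAAT, in 23 (52.3%, background 37.3%). TGACNNNGC, found in 8 promoters (18.2%), had a background of 14.8%. The GC box GGGCGG was present in 31 (70.5%, background 61.6%) and TTCNNNGAA, the core of an interferon-gamma activated site, in 4 (9.09%, background 6.497%). A match is a stretch of letters, and binding was not measured here.

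The levels of the 48 genes in the tissue labelled spinal cord are given in FPKM, deposited counts scaled by gene length and library total. Only a value per length can be compared between genes. Single genes are compared between the groups in CPM, counts corrected for library size with TMM factors, since the gene length cancels. Sums and ratios over several proteasome genes are given in FPKM unless stated, and sums of cell markers in CPM. The level plot shows that the parts of the complex were not listed at 1 common level. The 14 constitutive 20S genes had mean levels from 21.2 FPKM for *Psma3l* to 154.5 FPKM for *Psmb7*, a 7.28-fold range, and the 17 genes of the 19S particle had levels from 21.8 FPKM for *Psmd14* to 119.5 FPKM for *Psmc3*. The lengths behind these values follow from the deposited count and FPKM, and *Psma3l* (3209 bases) and *Psmc6* (2379 bases, 22.6 FPKM) had the longest gene models of the alpha ring and of the ATPases.

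**Figure D1:**
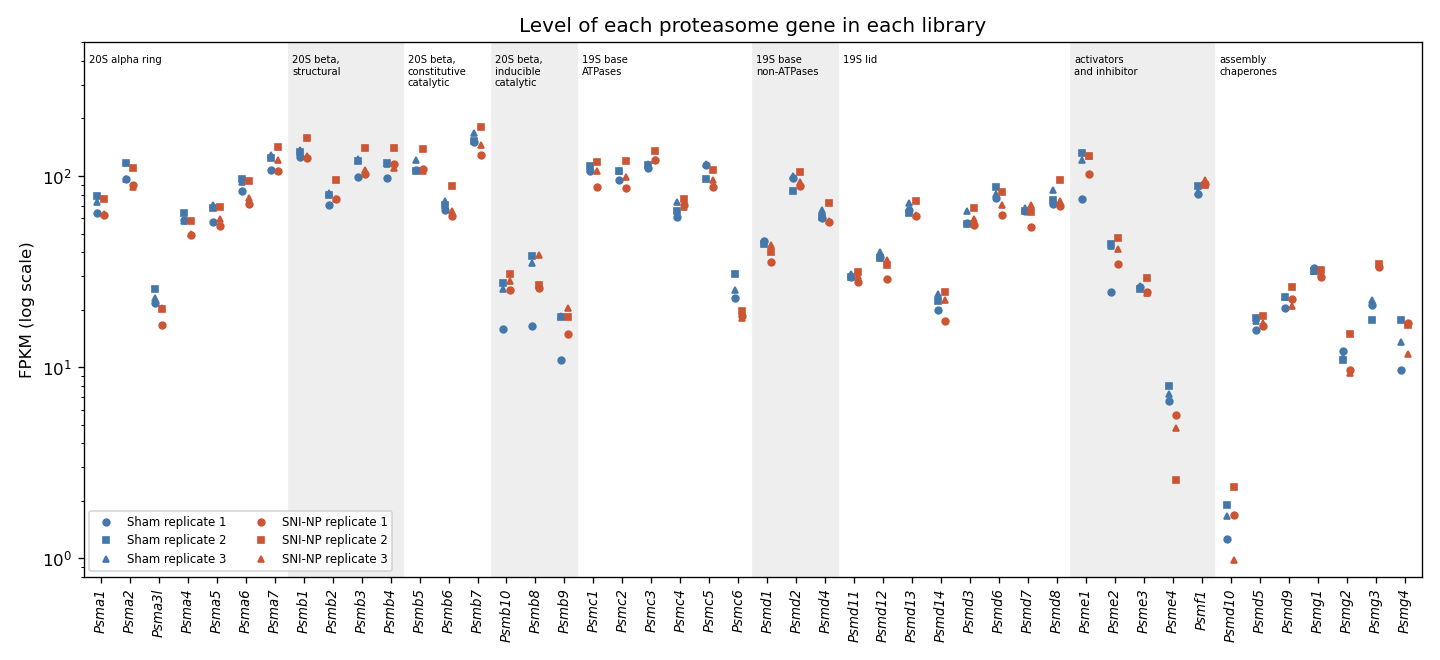
FPKM (log axis) of 46 proteasome genes in each of the 6 libraries, grouped by role; blue marks are sham and orange marks SNI-NP libraries, and circle, square and triangle are replicates 1, 2 and 3. The structural and constitutive catalytic beta genes had means from 71.3 to 154.5 FPKM, the inducible catalytic genes from 16.9 to 30.1 FPKM, and *Psmd10* was lowest at 1.64 FPKM.

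The inducible catalytic genes stood below their constitutive counterparts in every library. The 3 inducible genes summed to between 13.3% and 27.5% of the FPKM of *Psmb5*, *Psmb6* and *Psmb7*. PA28 alpha (*Psme1*) was at 114.6 FPKM, PA28 beta (*Psme2*) at 39.2 and PA28 gamma (*Psme3*), the nuclear form, at 26.1. PA200, encoded by *Psme4*, was at 5.80 FPKM, and *Psmf1*, which encodes the inhibitor PI31, was at 88.0 FPKM. The 7 assembly chaperone genes lay between 1.64 FPKM for *Psmd10* and 31.6 FPKM for *Psmg1*. Of the 31 constitutive subunit genes, *Psma3l*, *Psmc6*, *Psmd11* and *Psmd14* were listed below *Psmg1*.

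Few proteasome genes differed between SNI-NP and sham rats, and none past the adjusted threshold. With edgeR's quasi-likelihood test and Benjamini-Hochberg adjustment over 14426 genes, 0 of 48 members passed an adjusted p of 0.05, as did 0 of all genes (0%). At an unadjusted p under 0.05, 1 member was higher in SNI-NP rats, *Psmg3* (background over all genes 4.91%), and *Psmc6* and *Psme4*, 2 members, were lower (background 5.94%). The share of members past this threshold was 6.25%. DESeq2 called 1 member, *Psmg3*, at an adjusted p under 0.05, where 1.48% of 14143 genes were called. Every SNI-NP library lay above every sham library for 3 members, *Psmg3*, *Psmc3* and *Psmf1* (background 10.4%), and below it for 3, *Psmc6*, *Psme4* and *Psma3l* (background 8.15%). Groups without overlap in either direction were found for 12.5% of members. This share and the 6.25% past the unadjusted threshold were each below the sum of their background shares for higher and lower genes. Whether members differed from all genes in these shares was not tested.

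The median log2 fold change (log2FC) of the 48 members was 0.07, beside 0.01 over all genes tested. It ranged from -0.65 for *Psme4* to 0.78 for *Psmg3*, with 32 members above 0 and 16 below. For 42 members the estimate was smaller than 0.25 on the log2 scale in either direction, and for 37 the 95% confidence interval lay within a 1.5-fold change either way. The other 11 had intervals that reached beyond 1.5-fold, so a change of that size was not bounded for them. They include all the inducible genes, the poorly expressed *Psmd10* and the 3 genes with an unadjusted p under 0.05.

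**Figure D2:**
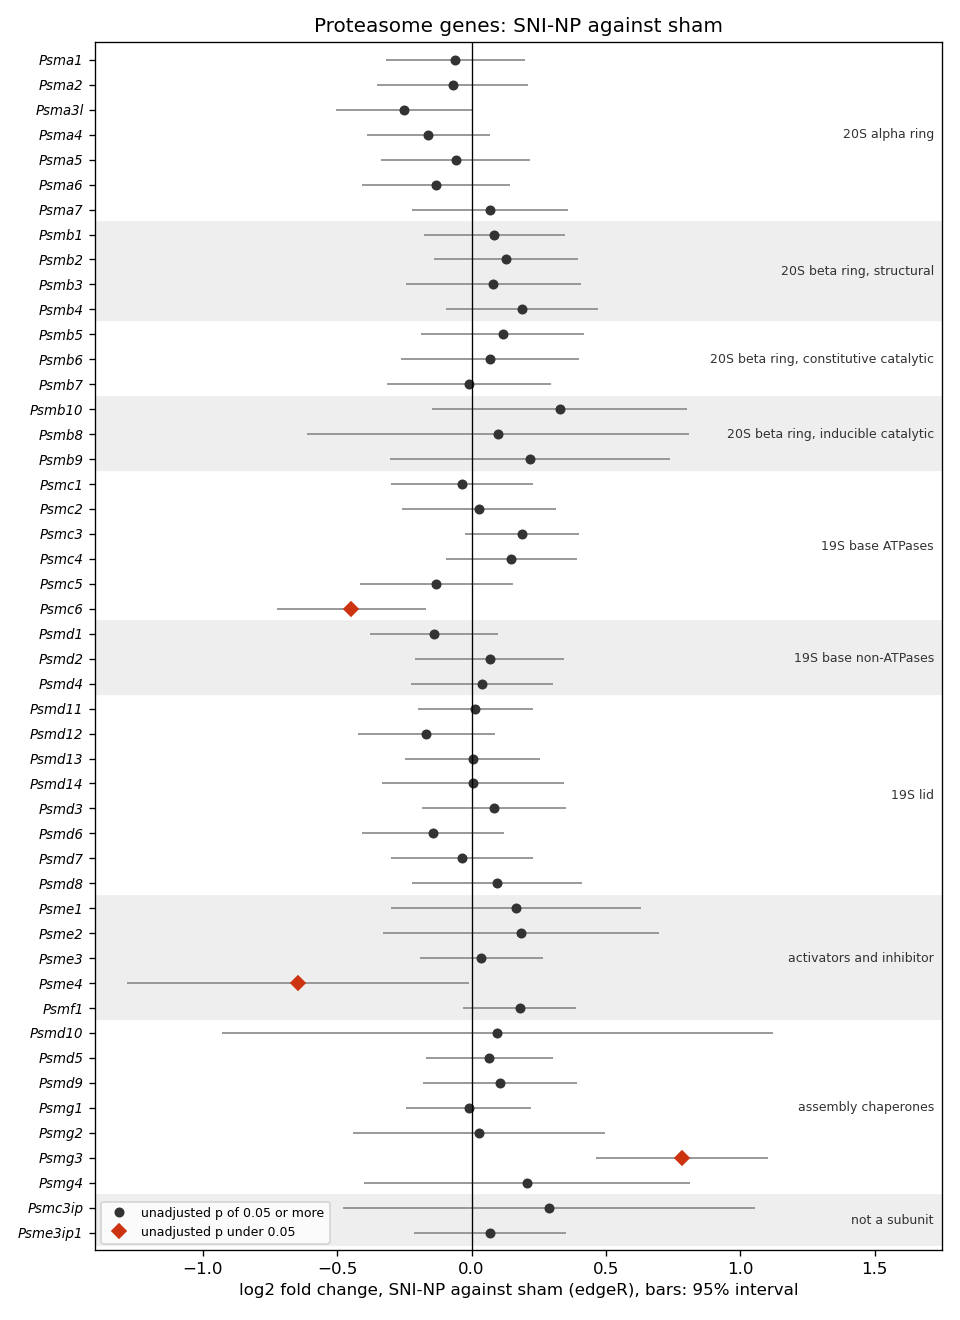
Log2FC of SNI-NP against sham (horizontal axis) for the 48 genes grouped by role, with 95% confidence intervals from edgeR; red diamonds have an unadjusted p under 0.05. Most intervals cross 0, *Psmg3* lies at 0.78, *Psmc6* at -0.45 and *Psme4* at -0.65.

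In the alpha ring, which gates the 20S channel, 0 of 7 genes had an unadjusted p under 0.05, and 6 of 7 estimates were below 0 (median -0.07). *Psma3l* had 69.6, 78.9 and 73.3 CPM in the sham libraries and 55.6, 64.4 and 66.3 CPM in the SNI-NP libraries. The groups did not overlap, and the log2FC was -0.25 (standard error, SE, 0.11, unadjusted p = 0.0511 and adjusted p = 0.461 by edgeR). *Psma7*, the alpha gene with the highest FPKM, had 99.5, 110.0 and 118.4 CPM in the sham libraries and 101.6, 129.4 and 112.8 CPM in the SNI-NP libraries, with overlapping groups and a log2FC of 0.07 (SE 0.12).

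In the beta rings the 4 structural genes had estimates from 0.08 to 0.19, all above 0 and none with an unadjusted p under 0.05. *Psmb1* had the highest FPKM of the 4 and was at 134.2, 137.8 and 146.3 CPM in the sham libraries and 138.1, 167.4 and 137.8 CPM in the SNI-NP libraries. One SNI-NP library, replicate 2, stood above the rest, and the log2FC was 0.08 (SE 0.11).

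The 3 constitutive catalytic genes overlapped between the groups. *Psmb5*, which encodes the chymotrypsin-like subunit, had 93.9, 89.3 and 105.8 CPM in the sham libraries and 99.1, 120.6 and 93.2 CPM in the SNI-NP libraries (log2FC 0.12, SE 0.13). *Psmb6*, the caspase-like subunit, had 47.7, 48.7 and 53.1 CPM against 46.5, 63.0 and 47.3 CPM (0.07, SE 0.14). *Psmb7*, the trypsin-like subunit, had 140.6, 135.9 and 158.1 CPM against 126.5, 166.8 and 138.6 CPM (-0.01, SE 0.13). SNI-NP replicate 2 was the highest library for all 3 genes. The counts of *Psmb6* were not whole in any library, while their sum with those of LOC100360846, a gene described as a proteasome subunit, was whole in every library. Reads of these genes could be divided between them, and the log2 ratio of the summed counts was 0.05.

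The inducible catalytic genes were each higher on average in SNI-NP rats, but the sham libraries themselves spread wider than this difference. *Psmb8*, the inducible counterpart of *Psmb5*, had 17.6, 37.7 and 37.4 CPM in the sham libraries and 28.9, 28.5 and 41.9 CPM in the SNI-NP libraries. *Psmb9*, which replaces *Psmb6*, had 10.03, 16.1 and 16.8 CPM in the sham libraries and 14.3, 16.7 and 18.95 CPM in the SNI-NP libraries. *Psmb10*, which replaces *Psmb7*, had 15.8, 26.5 and 25.4 CPM against 26.3, 30.4 and 28.3 CPM. Sham replicate 1 was lowest for all 3, and the groups overlapped for each. Over all 48 members it was the lowest library for 18, among them 7 of the 31 constitutive subunit genes. The log2FC values were 0.10 (SE 0.30) for *Psmb8*, 0.22 (0.22) for *Psmb9* and 0.33 (0.20) for *Psmb10*, with unadjusted p-values by edgeR of 0.756, 0.362 and 0.148. Without sham replicate 1 these became -0.20, 0.00 and 0.11.

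The PA28 genes that are induced with them shared their lowest library. *Psme1* had 75.8, 127.6 and 120.5 CPM in the sham libraries and 107.6, 126.7 and 128.8 CPM in the SNI-NP libraries. *Psme2* had 33.1, 56.8 and 57.3 CPM against 48.3, 62.9 and 56.0 CPM. Sham replicate 1 was again lowest for both, the groups overlapped, and the log2FC values were 0.16 (SE 0.20) and 0.18 (0.22). Without sham replicate 1 they were -0.05 for both. The counts of *Psme1* were not whole in any library, so its reads may be shared with another gene. The coefficient of variation among sham libraries was 26.03% to 37.3% for these 5 genes and 0.96% to 13.0% for the 31 constitutive subunit genes.

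**Figure D3:**
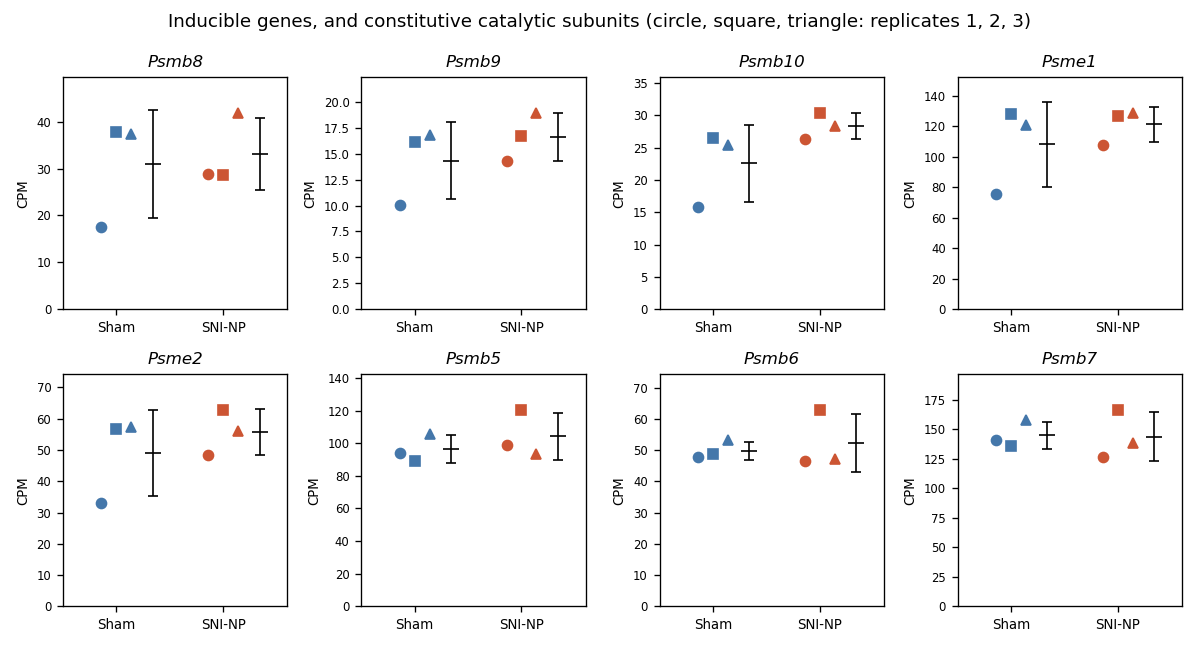
CPM in each library (vertical axis) for the 3 inducible catalytic genes, *Psme1*, *Psme2* and the 3 constitutive catalytic genes, with the mean and SD of each group (n = 3) as black bars. Sham replicate 1 (blue circle) lies lowest in each of the 5 inducible genes, such as *Psmb8* at 17.6 CPM. It was not lowest in *Psmb5*, at 93.9 CPM, and was the lowest library for 18 of all 48 members.

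The balance of inducible to constitutive catalytic genes was measured as the log2 ratio of their summed FPKM. It was -2.91, -1.97 and -2.20 in sham rats and -2.18, -2.42 and -1.86 in SNI-NP rats. The groups overlapped, with means of -2.36 ± 0.49 and -2.16 ± 0.28 (SD, n = 3 each), and the difference of 0.21 was smaller than the pooled SD of 0.40. By pair, the difference was 0.03 for *Psmb8* to *Psmb5*, 0.19 for *Psmb9* to *Psmb6* and 0.38 for *Psmb10* to *Psmb7*, with pooled SDs of 0.56, 0.33 and 0.30. Without sham replicate 1 the difference in the summed ratio was -0.07.

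Other genes of class I antigen presentation, which interferons also induce in part, were read for the same libraries. Of 11 such genes, 0 had an unadjusted p under 0.05, and sham replicate 1 was the lowest library for 8. *Tap1*, a subunit of the peptide transporter, had 22.2, 40.9 and 50.7 CPM in the sham libraries and 26.2, 49.8 and 50.7 CPM in the SNI-NP libraries, and replicate 1 was the lowest library of each group. The summed CPM of 10 microglia and macrophage markers was 416.1 in sham replicate 1, the lowest of the 6 libraries, where the other five lay between 502.1 and 650.3, and 0 of the 10 had an unadjusted p under 0.05 between the groups. The same library was also lowest in neutrophil markers, at 42.5 CPM where the others lay between 69.9 and 209.5. In B cell markers it was lowest too, at 4.62 CPM where the others lay between 5.86 and 14.8. It was not lowest in T and NK cell markers, at 47.4 CPM where sham replicate 3 had 44.8. In astrocyte and oligodendrocyte markers it was the highest library, at 1829 and 40884 CPM. The part of these cells in the low inducible genes was not tested.

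In the ATPase ring of the 19S base, which unfolds substrates, *Psmc6* was lower in SNI-NP rats. It had 54.9, 70.6 and 59.8 CPM in the sham libraries and 46.1, 46.2 and 43.6 CPM in the SNI-NP libraries, so every SNI-NP library lay below every sham library. The log2FC was -0.45 (SE 0.12, unadjusted p = 0.00625, adjusted p = 0.351 by edgeR). In RefSeq the gene overlaps *Styx* on the same strand, and *Styx* had 2.34 ± 0.865 CPM in the sham libraries and 1.99 ± 0.886 CPM in the SNI-NP libraries (SD, n = 3 each, log2FC -0.24, SE 0.45). None of the other ATPase genes passed this threshold. *Psmc3*, the ATPase gene with the highest FPKM, had 179.8, 179.6 and 186.1 CPM in the sham libraries and 205.8, 217.7 and 198.2 CPM in the SNI-NP libraries, also without overlap but in the other direction. Its log2FC was 0.19 (SE 0.09, unadjusted p = 0.0731, adjusted p = 0.489). *Psmc1*, *Psmc2*, *Psmc4* and *Psmc5* had estimates from -0.13 to 0.15 with unadjusted p-values of 0.195 or more.

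The non-ATPase genes of the base, *Psmd1*, *Psmd2* and *Psmd4*, had estimates of -0.14, 0.07 and 0.04. *Psmd2*, a scaffold that receives ubiquitin-like domains and the highest of the 3 in FPKM, had 288.5, 237.6 and 293.8 CPM in the sham libraries and 274.1, 308.2 and 276.6 CPM in the SNI-NP libraries. The 8 genes of the lid lay between -0.17 for *Psmd12* and 0.09 for *Psmd8*, with 0 past an unadjusted p of 0.05. *Psmd8* had the highest FPKM of the lid, at 108.7, 109.5 and 127.4 CPM in the sham libraries and 110.8, 144.4 and 113.6 CPM in the SNI-NP libraries. *Psmd14*, the deubiquitinase of the lid, had a log2FC of 0.00 (SE 0.14).

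Summed over each particle, the transcripts of the proteasome differed between the groups by less than the spread of the libraries. The 14 constitutive 20S genes summed to 1207, 1353 and 1364 FPKM in sham rats and 1168, 1507 and 1215 FPKM in SNI-NP rats. The 17 genes of the 19S particle summed to 1139, 1154 and 1220 FPKM against 1032, 1268 and 1128 FPKM. The ratio of the SNI-NP to the sham mean was 0.991 for the core and 0.976 for the regulatory particle, and 1.008 and 1.002 for the same sums in CPM, so the direction turned with the scale. SNI-NP replicate 2 was the highest library for 20 of these 31 genes and SNI-NP replicate 1 the lowest for 14. Without SNI-NP replicate 2 the median log2FC of all 48 members was -0.05.

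Among the activators, *Psme4* was lower in SNI-NP rats and varied most among them. PA200, its product, is a single large chain that caps the core and is known for histone degradation. The gene had 45.3, 50.2 and 48.6 CPM in the sham libraries and 40.6, 17.8 and 33.7 CPM in the SNI-NP libraries. The groups did not overlap, and replicate 2 of the SNI-NP rats, which was highest for most other subunit genes, was lowest here. The log2FC was -0.65 (SE 0.27, unadjusted p = 0.0471, adjusted p = 0.455 by edgeR). Without SNI-NP replicate 2 it was -0.40, and the p rose above 0.05 when any sham library or SNI-NP replicate 3 was left out, with p-values of 0.0611, 0.0948 and 0.0789 without sham replicates 1, 2 and 3 and 0.0733 without SNI-NP replicate 3. The gene has the longest model of all members, at 6798 bases, and with a correction for gene length in each library the log2FC was -0.58 (unadjusted p = 0.0412).

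*Psme3* had 68.6, 64.3 and 69.3 CPM in the sham libraries and 67.4, 75.0 and 64.9 CPM in the SNI-NP libraries, with a log2FC of 0.04 (SE 0.10). *Psmf1* had 111.2, 117.8 and 114.3 CPM in the sham libraries and 131.8, 123.0 and 133.9 CPM in the SNI-NP libraries. Its groups did not overlap, and the log2FC was 0.18 (SE 0.09, unadjusted p = 0.0841, adjusted p = 0.497 by edgeR).

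The assembly chaperone gene *Psmg3* had the lowest p-value of all members and the highest fold change. Its product, PAC3, helps to build the alpha ring. It had 16.8, 13.5 and 17.7 CPM in the sham libraries and 27.8, 27.4 and 27.4 CPM in the SNI-NP libraries. The SNI-NP libraries differed by less than 1 CPM and all lay above the sham libraries. The log2FC was 0.78 (SE 0.14, unadjusted p = 5.89e-04, adjusted p = 0.265), and the DESeq2 adjusted p was 7.58e-04. When single libraries were left out the log2FC stayed between 0.68 and 0.84.

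*Psmg4*, which encodes PAC4, the partner of PAC3, had 5.58, 9.75 and 7.74 CPM in the sham libraries and 10.2, 9.55 and 6.84 CPM in the SNI-NP libraries, so the groups overlapped (log2FC 0.21, SE 0.26). *Psmg1*, which encodes PAC1 and had the highest FPKM of the chaperones, was at 33.1, 30.7 and 31.7 CPM in the sham libraries and 31.2, 32.1 and 31.4 CPM in the SNI-NP libraries. These 6 values lay close together, and the log2FC was -0.01 (SE 0.10). *Psmg2*, the partner of PAC1, had an estimate of 0.03 (SE 0.20). The chaperones of the 19S base, *Psmd5*, *Psmd9* and *Psmd10*, had estimates of 0.07, 0.11 and 0.10. *Psmd10* was measured at 0.52 to 1.22 CPM, and its SE of 0.44 left a wide interval.

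**Figure D4:**
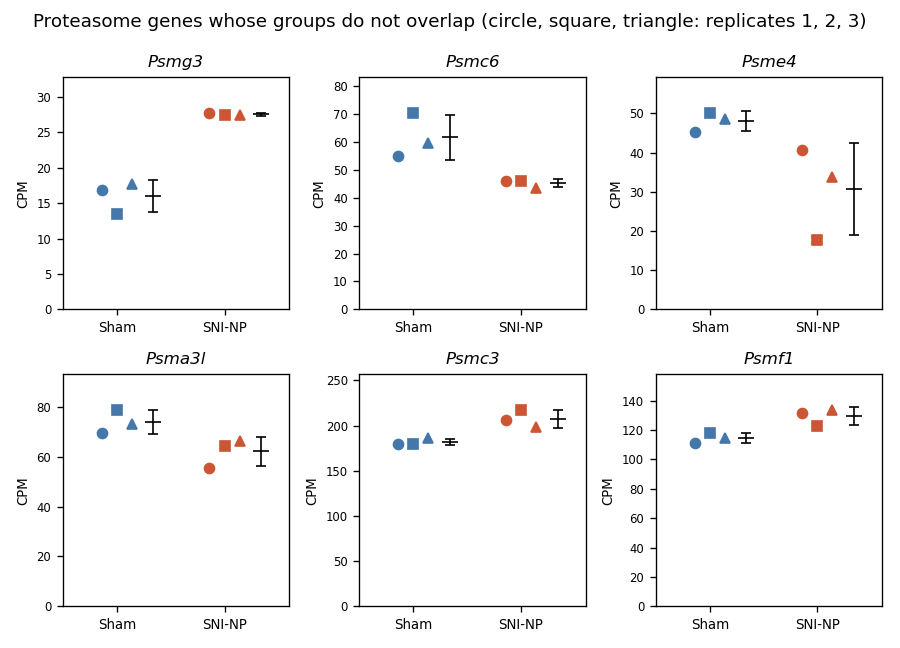
CPM in each library (vertical axis) for the 6 genes whose sham and SNI-NP values do not overlap, with the mean and SD of each group (n = 3) as black bars. *Psmg3* averaged 16.0 CPM in sham and 27.5 CPM in SNI-NP libraries, *Psme4* spread from 17.8 to 40.6 CPM among SNI-NP rats, and *Psmc3* and *Psmf1* differed by less than 1.5-fold.

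The genes with related symbols only were not past the threshold. *Psme3ip1* had 35.0, 42.3 and 37.2 CPM in the sham libraries and 44.2, 37.8 and 38.2 CPM in the SNI-NP libraries (log2FC 0.07, SE 0.12), and *Psmc3ip* was at 2.64 to 5.22 CPM (0.29, SE 0.33).

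The pathway around the proteasome was read from 35 further genes, comprising subunits and partners with other symbols, regulators of subunit genes, ubiquitin and its activating enzymes, and shuttles. *Paaf1*, *Ddi1* and *Ubb* were not analysed here. At an unadjusted p under 0.05 by edgeR, SNI-NP rats had 1 of the 35 higher and 2 lower (8.57% together). Over all genes tested, 4.91% were higher and 5.94% lower at this threshold, which together exceed the 8.57%. Of the 35, 0 passed the adjusted threshold by edgeR. *Uchl5*, a deubiquitinase that docks on the 19S base, had 10.3, 7.21 and 9.78 CPM in the sham libraries and 5.06, 5.16 and 3.88 CPM in the SNI-NP libraries. All SNI-NP libraries lay below the sham libraries, and the log2FC was -0.95 (SE 0.22, unadjusted p = 0.00305, adjusted p = 0.329 by edgeR).

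*Ecpas*, which encodes the proteasome adaptor ECM29, had 88.8, 96.7 and 87.9 CPM in the sham libraries and 70.7, 69.1 and 84.0 CPM in the SNI-NP libraries, with a log2FC of -0.29 (SE 0.11, unadjusted p = 0.0339). Its call was lost in several alternatives, among them the correction for gene length in each library (log2FC -0.21, unadjusted p = 0.112 by edgeR). The gene model has 5813 bases, and over all genes tested log2FC and gene length had a Spearman correlation of -0.11. *Uba6*, a ubiquitin-activating enzyme, had 21.1, 23.6 and 22.1 CPM in the sham libraries and 18.8, 3.78 and 6.43 CPM in the SNI-NP libraries. SNI-NP replicates 2 and 3 were far below the other four libraries, and the gene did not pass the unadjusted threshold (log2FC -1.20, SE 0.52, unadjusted p = 0.0509 by edgeR). Without SNI-NP replicate 1 its log2FC was -2.14 (adjusted p = 0.0169 by edgeR), and over the other alternatives it lay between -1.50 and -0.85 with adjusted p-values from 0.243 to 0.781.

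*Nfe2l1*, the activator of subunit genes named above, had 216.4, 214.6 and 241.5 CPM in the sham libraries and 218.8, 245.2 and 230.9 CPM in the SNI-NP libraries, with a log2FC of 0.05 (SE 0.10). The ubiquitin receptor *Adrm1*, to which *Uchl5* binds, was at 88.6, 84.7 and 97.9 CPM against 86.1, 99.1 and 91.5 CPM (0.03, SE 0.10), and the small lid subunit *Sem1* at 31.9, 34.9 and 34.8 CPM against 32.6, 35.7 and 29.6 CPM (-0.06, SE 0.11). *Pomp*, which matures the core, had 75.6, 80.7 and 84.5 CPM in the sham libraries and 68.7, 84.7 and 63.2 CPM in the SNI-NP libraries. Its log2FC was -0.15 (SE 0.13), and -0.12 for counts summed with those of a near copy, LOC100911238.

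The cell content of the libraries bears on these values, since in bulk tissue fewer cells of a type and less RNA per cell cannot be told apart. Neuron markers summed to 3812 to 11672 CPM over the 6 libraries and oligodendrocyte markers to 30040 to 40884 CPM. Schwann cell markers, which belong to peripheral nerve, summed to 75670 to 115714 CPM. CPM sums are not corrected for gene length, so the marker lists are not ranked against each other. Dorsal root ganglion neuron markers summed to 257.4 to 2137 CPM. Markers of peripheral nerve and ganglion were thus present in the tissue labelled spinal cord, and the share of its RNA from these sources was not measured. SNI-NP replicate 1 had the lowest neuron and ganglion sums, and without it the log2FC values of *Psmg3*, *Psmc6* and *Psme4* were 0.76, -0.48 and -0.92. Of the erythroid markers, 3 of 4 were higher in SNI-NP rats at an unadjusted p under 0.05 (summed 319.0 to 691.4 CPM against 682.4 to 1534 CPM), and of the B cell markers 3 of 5 (4.62 to 7.68 against 11.3 to 14.8 CPM), where 4.91% of all genes were higher. Of 8 neutrophil markers 1 was higher (42.5 to 141.3 against 106.7 to 209.5 CPM). In the same direction were 1 of 6 Schwann cell, 1 of 5 skeletal muscle and 1 of 5 meninges and fibroblast markers. Of 9 neuron markers 2 were lower, of 10 ganglion markers 1 and of 6 astrocyte markers 1, where 5.94% of all genes were lower. The microglia and macrophage, oligodendrocyte, and T and NK cell lists had 0 in either direction. Skeletal muscle markers ranged from 10.2 to 422.7 CPM among the SNI-NP libraries and from 12.1 to 72.1 CPM among the sham libraries. No marker of these lists was at 0 in all libraries. The part of these cells in the proteasome genes was not tested. With 3 libraries in each group, the smallest two-sided p that an exact permutation test could reach is 0.1, so none is printed for single genes.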

How the data were processed

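Spinal cord RNA of 3 sham and 3 SNI-NP libraries was compared, with groups taken from the sample labels. The authors deposited an estimated count per gene without normalization and an FPKM value per gene, for 22050 genes. Per the study's text the reads were mapped to the rat genome called Rat6 and unique sequences were kept, and the submitters' processing notes name FastQC, STAR and HTSeq. The annotation release and the use of strand are not given in the sources used here, so reads of overlapping genes may be mixed. No H3K27ac data were used here.

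The deposited estimated counts were rounded to whole numbers. edgeR 4.0.16 in R 4.3.3 was used with filterByExpr, TMM factors and the quasi-likelihood test. Group was the only term, and Benjamini-Hochberg adjustment ran over 14426 genes. The authors' methods name DESeq2, which was run as an alternative (version 1.42.0). CPM values use TMM factors. The libraries held 16670760 to 18151156 counts. A count of 0 allows up to 0.167 to 0.18 CPM (3 counts), covering counting error only. The test was checked on simulated data.

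The members and the gene lists were chosen with earlier results of these data known. The rule for genes given in full was an unadjusted p under 0.05, the catalytic and activator genes, the gene with the highest mean FPKM of each role, and *Nfe2l1*, *Adrm1*, *Sem1* and *Pomp*. *Psma3l*, *Psmf1*, *Psmg4*, *Uba6* and *Tap1* were added after their values were seen. Some genes that the rule names are not reported here.

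The alternatives were DESeq2, RLE size factors, no filter on low counts, loess offsets on gene length (span 0.5), the replicate number as a block alone and with these offsets, limma 3.58.1 on log2(FPKM + 0.1), and leaving out each library. Sums with near copies were added after the data were seen.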

Additional observations from a re-analysis of the deposited data

How the results depend on the processing

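The count of proteasome genes at an adjusted p under 0.05 was 0 under edgeR's quasi-likelihood test, its alternatives and limma, whereas DESeq2 gave 1, *Psmg3*, and at an unadjusted p under 0.05 edgeR called 3 members. *Psmg3* stayed higher and *Psmc6* lower at an unadjusted p under 0.05 in every alternative run. The count of lower members was 1 to 2 when single libraries were left out, and *Psme4* was lost without any sham replicate or without SNI-NP replicate 3. The median log2 fold change of the members lay between -0.0536, without SNI-NP replicate 2, and 0.0868 when single libraries were left out. The ratio of inducible to constitutive catalytic genes differed by -0.07 to 0.40 in the same way.

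Of the 35 other pathway genes, 1 passed the adjusted threshold under DESeq2, *Uchl5*, and 0 to 1 when single libraries were left out, the 1 being *Uba6* without SNI-NP replicate 1. The count of higher genes, 1 in the main comparison, was 0 under DESeq2, RLE size factors, the replicate block, both length corrections and limma on FPKM, and 0 to 1 when single libraries were left out. The count of lower genes, 2 in the main comparison, was 3 under DESeq2, RLE size factors, no filter and limma on FPKM, where *Uba6* was added, and 2 under both length corrections and the block. It was 1 to 3 when single libraries were left out, and 1 without sham replicate 1 or 2.

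With the replicate number as a block, 1 member was higher, 2 were lower and 0 passed the adjusted threshold, so the block changed no call of a member, and among the other pathway genes the higher gene and *Ecpas* lost their calls and *Uba6* gained one. The deviations of same-numbered libraries correlated at 0.214, -0.143 and 0.054, so the libraries share only a number. Over single genes, 719 of 756 alternative values for 58 genes kept their direction and call or moved by less than the spread, 22 lost the unadjusted threshold, 10 gained it, 5 without a call moved further, and 0 called values reversed. Those that gained it were *Uba6* in 8 alternatives, *Psma3l* under limma on FPKM (-0.29) and *Pomp* without SNI-NP replicate 2 (-0.31). The cause of these changes was not tested. With 3 libraries a group, 11 members kept intervals beyond 1.5-fold, which limits what can be said of the inducible genes and *Psmd10*.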
